A study of Mus musculus with 16 samples.

Results

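Ribosomal protein genes carry many of the small nucleolar RNAs (snoRNAs) of a mammalian cell inside their introns. The 52 snoRNAs described here lie on the same strand within 27 protein-coding genes of ribosomal proteins (symbols starting Rpl, Rps or Rplp with a digit, or Rpsa) in the mouse annotation GENCODE M21, which uses the GRCm38 build. They were chosen by position among the 406 snoRNA intervals of the 1885 small RNA intervals in the deposited counts. Those of Rpl13a, and Snord68, Snord90 and the Snord14 group, were left out. The 52 comprise 34 in genes of the large ribosomal subunit and 18 in genes of the small subunit. By name or sequence boxes 29 are C/D-box snoRNAs, 17 are H/ACA-box snoRNAs and 6 could not be classified.

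The data are small RNA libraries of 8 cell populations, sorted by flow cytometry from bone marrow of mice labelled WT (wild type). Each population has 2 libraries, which makes 16. Of these, 4 were progenitors, named CLP, CMP, GMP and MEP (the usual short names of the common lymphoid, common myeloid, granulocyte-monocyte and megakaryocyte-erythroid progenitors), and 4 were mature cells (B, T, myeloid and erythroid). All groups were untreated as far as the labels say; mouse strain and age, and whether cells of several mice were pooled, are not stated in the sources used here. The labels do not say that the libraries of a population came from separate mice, so the error behind every p-value is library spread that may be technical.

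Most of these snoRNAs are released from the spliced, debranched intron of their host transcript rather than made from a promoter of their own. C/D-box snoRNAs guide 2′-O-methylation and H/ACA-box snoRNAs guide pseudouridylation, mainly of ribosomal RNA, by pairing with it through a short antisense stretch. Host genes of this kind belong to the genes that all growing cells use for ribosome production, and several of them hold more than 1 snoRNA.

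Several host genes hold snoRNAs that share a long stretch of identical sequence. They are shown because their levels can be compared within 1 host transcript and 1 library. Sequences are the GENCODE M21 transcripts, 5′ to 3′, with the shared stretch of each set in capitals. Rpl7a on chromosome 2 (GRCm38, plus strand) holds Gm22879 at chr2:26912218-26912291 and Gm24134 at chr2:26912530-26912600, which share 18 bases that include a CTGA. The stretch lies near the 3′ end of both.
Gm22879: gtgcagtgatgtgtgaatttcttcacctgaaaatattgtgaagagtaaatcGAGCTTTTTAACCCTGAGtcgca
Gm24134: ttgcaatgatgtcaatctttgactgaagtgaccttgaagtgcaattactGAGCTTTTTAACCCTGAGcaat

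Rps3a1 on chromosome 3 (minus strand) holds Snord73a at chr3:86138791-86138858 and Rnu73b at chr3:86140618-86140688, which share 13 bases.
Snord73a: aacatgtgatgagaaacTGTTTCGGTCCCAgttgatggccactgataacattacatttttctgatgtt
Rnu73b: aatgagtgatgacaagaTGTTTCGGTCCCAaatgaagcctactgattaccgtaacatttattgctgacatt

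Rpl4 on chromosome 9 (plus strand) holds 5 C/D-box snoRNAs in 2 sequence families. The first consists of Gm23344 at chr9:64175048-64175115, Gm22571 at chr9:64175873-64175942 and Gm22455 at chr9:64177123-64177193, which have 17 bases in common.
Gm23344: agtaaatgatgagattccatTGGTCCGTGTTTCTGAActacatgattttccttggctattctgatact
Gm22571: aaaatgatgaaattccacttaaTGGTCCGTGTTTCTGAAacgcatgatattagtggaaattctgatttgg
Gm22455: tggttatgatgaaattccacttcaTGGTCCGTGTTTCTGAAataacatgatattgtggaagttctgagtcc

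The second Rpl4 family lies between them, with Snord16a at chr9:64175423-64175521 and Gm23136 at chr9:64176661-64176759, which share 22 bases.
Snord16a: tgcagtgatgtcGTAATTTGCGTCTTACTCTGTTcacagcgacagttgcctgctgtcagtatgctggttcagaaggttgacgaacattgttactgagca
Gm23136: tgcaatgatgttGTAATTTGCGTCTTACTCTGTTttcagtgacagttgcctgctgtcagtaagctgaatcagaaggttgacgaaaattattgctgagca

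Rpl23a on chromosome 11 (minus strand) holds Snord42a at chr11:78181299-78181363 and Snord42b at chr11:78183056-78183124, with 18 bases in common, again at the 3′ end and including a CTGA.
Snord42a: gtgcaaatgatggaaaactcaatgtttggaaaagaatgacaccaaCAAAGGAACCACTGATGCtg
Snord42b: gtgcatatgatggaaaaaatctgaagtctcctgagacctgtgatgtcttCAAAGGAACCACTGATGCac

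The 29 C/D-box members were a little shorter than the other 148 C/D-box snoRNAs listed, with a median of 71 bases against 79. They also lay closer to the end of the host intron. The C/D-box members ended a median of 84 bases before the 3′ splice site (quartiles 72 and 105), against 260 bases in 80 other C/D-box snoRNAs of protein-coding hosts. The 17 H/ACA-box members ended a median of 186 bases before it, against 1393 bases in 80 others. The introns differed in length as well. Introns with C/D-box members had a median length of 369 bases and those of the other C/D-box snoRNAs 650.5 bases. For the H/ACA-box class the medians were 474 bases in members and 2850.5 bases in the others. Of the 52, 25 lay in introns of every annotated transcript of the host. A further 26 lay in introns of every protein-coding transcript but in an exon of a non-coding one, and Snora7a of Rpl32 overlapped an exon of a protein-coding transcript.

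The shallowest library was CMP 1, with a total count of 8197458, and the deepest CLP 2, with 41799906. The 2 libraries of GMP, MEP and erythroid cells were less alike than those of the other populations, with an SD of the log2 ratio between them of 0.537, 0.621 and 0.592 against 0.114 to 0.192. Each of those 6 libraries had its nearest neighbour in another population. Marker microRNAs fitted the labels in part. Mir150, of mature lymphocytes, was highest in T cells (272 TMM-scaled CPM, explained below) and B cells (81.8), and Mir223, of granulocytes and monocytes, in myeloid cells (921). Mir223 also reached 443 in erythroid cells (297 and 590), above the 346 of GMP, and 314 in T cells. The erythroid Mir451a reached 147 in erythroid cells and 152 in MEP, but also 127 in CLP. The erythroid Mir144 was highest in an MEP library (6.79, with 2.38 in the other), and read 0.844 and 4.31 in erythroid cells and 2.12 and 2.91 in CLP. Mir342, also of lymphocytes, was 63.7 in T cells, but 16.2 in B and 18.2 in myeloid cells. The progenitor Mir99a was 16.4 in CMP and 3.90 to 5.20 in the other progenitors, against 2.01 to 4.65 in mature cells. The progenitor Mir126a was 18.2 in CMP and 7.04 to 9.36 in the other progenitors, but 12.5 in T cells. Mir142, of all blood cells, ranged from 16.9 in CMP to 161 in myeloid cells. The part of these values in the results below was not tested.

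Levels are CPM, each count divided by the library's total after TMM scaling (trimmed mean of M values) and times 1e+06. Low counts left 49 of the 52 in the tests. The others were Gm22077 of Rpl3 with 2 counts in 1 library, Gm23202 of Rpl21 with 14 counts in 4 libraries and Gm27326 of Rpl23 with 31 counts in 8 libraries. Members together took 16.4% ± 0.0713 (SD, n = 2) of all counts in T cells, the lowest share, and 18.5% ± 0.0101 (SD, n = 2) in CMP, the highest. The 6 other populations lay between 17.3% and 18.4%.

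Most C/D-box members were more abundant than the H/ACA-box members in these gel-selected libraries. Per kilobase of snoRNA, the mean levels of the 24 described individually ran from 281 CPM for Gm23136 of Rpl4 to 824620 CPM for Gm23301 of Rpl17. The 15 H/ACA-box members described ran from 3.28 CPM per kilobase for Gm26205 of Rpl6 to 276 for Snora3 of Rpl27a. Over all 49 tested members the ranges of the classes overlapped. Levels differed widely within 1 host gene. Among the 3 members of Rps12, the C/D-box Gm23130 stood 1693-fold above the H/ACA-box Snora33 (mean CPM). Among the 5 C/D-box members of Rpl4, Gm23344 stood 95.3-fold above Gm22571, with which it shares the 17 bases shown above. In Rps3a1, by contrast, Rnu73b exceeded Snord73a 1.35-fold. The labels state a gel selection by length, and its part in the gap between the classes was not tested.

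**Figure D1:**
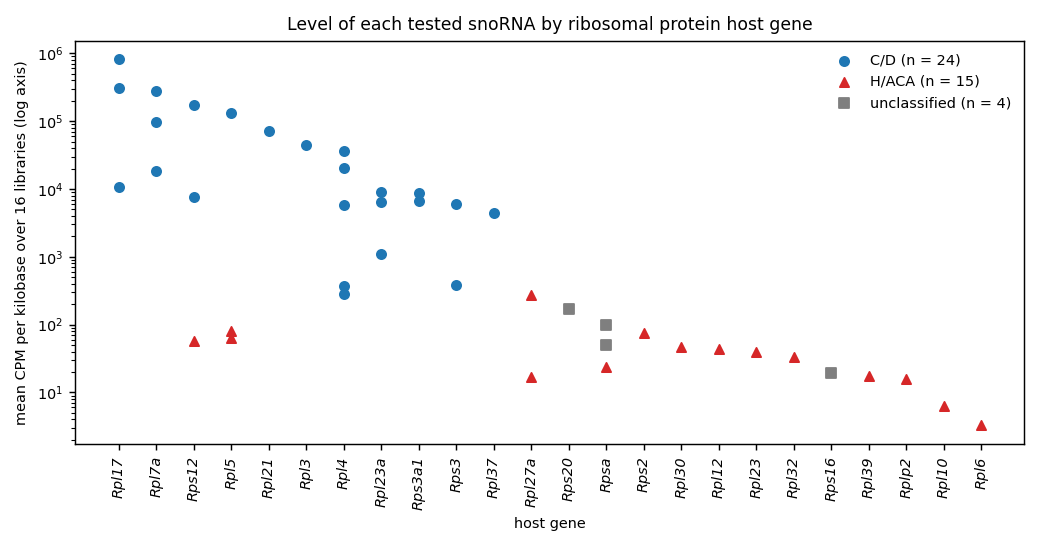
Mean level of each of the 43 snoRNAs described individually, in CPM per kilobase over 16 libraries (log axis), by host gene; circles are C/D-box, triangles H/ACA-box and squares unclassified snoRNAs. C/D-box members span 281 to 824620, and H/ACA-box members 3.28 to 276; over all 49 tested members the ranges of the classes overlap.

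Most members varied among the 8 populations. By edgeR's quasi-likelihood test, 39 of 49 differed at an adjusted p under 0.05, where 61.1% of all 749 tested features did. The count was 28 of 29 for C/D-box members and 8 of 16 for H/ACA-box members. Among the other snoRNAs it was 119 of 128 and 39 of 91, so the members' counts can be read beside those of their class. In such sorted bulk samples, fewer cells of a type and less RNA per cell cannot be told apart. The population with the highest mean exceeded the lowest by a median of 1.82-fold over the 36 members with at least 10 CPM, with the largest ratio, 4.28-fold, for Gm26387 of Rpl5.

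T cells and CMP stood at the extremes of the TMM-scaled levels. T cells had the highest mean for 11 of the 49 members and the lowest for 17, and CMP had the highest for 5 and the lowest for 17. No other population was lowest for more than 4. The member with the smallest adjusted p was Gm23969, a C/D-box snoRNA of Rpl7a (2.88e-07). It read 29222 and 30708 CPM in T cells and 25937 and 25659 in B cells. The other 12 libraries lay between 17465 and 19848, with no overlap. Gm24134 of the same gene was likewise highest in T cells, at 1845 and 2003 CPM, followed by B cells at 1507 and 1468, with the other 12 libraries at 967 to 1328 (adjusted p = 2.7e-06). Gm26202 of Rpl17 was high in both lymphoid populations, at 28653 and 29140 in B and 29173 and 31454 in T cells, against 13944 to 20855 elsewhere (adjusted p = 1.6e-06). Snord16a of Rpl4 had the same shape, at 837, 803, 853 and 843 in the B and T libraries and 419 to 574 in the rest (adjusted p = 1.01e-06). These gaps are in TMM-scaled CPM, with factors of 0.765 to 0.844 in B and T libraries and 1.17 and 1.14 in CMP. With library totals, CMP overlapped B and T cells for Gm26202, and CLP overlapped B cells for Gm23969. B cells then lay below CLP, GMP and myeloid cells for Gm24134, while Snord16a kept only a much narrower gap.

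CMP differed in a group of its own members. Gm23130 of Rps12 read 5974 and 5979 CPM in CMP and 10730 to 16343 in the 14 other libraries (adjusted p = 3.05e-07). Its neighbour in the same host gene, Snord100, went the other way, at 823 and 847 in CMP, 793 and 805 in B cells and 351 to 591 elsewhere (adjusted p = 3.8e-06). Their log2 ratio of counts, which no library scaling can move, was -2.86 and -2.82 in CMP and between -5.49 and -4.03 in the 14 other libraries. Gm25091 of Rpl21 was also lowest in CMP, at 3193 and 3237, against 4169 to 6785 in the rest (adjusted p = 1.26e-06). Gm23344 of Rpl4 stood at 1593 and 1581 in CMP and at 1843 and 1866 in T cells, below the other 12 libraries at 2354 to 3249 (adjusted p = 3.42e-06). Gm22455 of Rpl4 was lowest in the same populations, at 944 and 942 in CMP and 899 and 949 in T cells, with 1171 to 1952 elsewhere (adjusted p = 3.01e-07). TMM factors were 1.17 and 1.14 in the CMP libraries and 0.812 and 0.765 in the T libraries, so these ranks depend on scaling. With library totals, T cells rather than CMP were lowest for Gm25091 and Gm23344, and CMP stood above B cells for Gm22455. Gm23130 stayed lowest in CMP. Snord100 stayed highest in CMP, but its B libraries then overlapped the myeloid ones. The share of counts on the 45S pre-rRNA interval was 12.1% in CMP and 4.83% to 8.87% in the other populations, and its part in the CMP values was not tested.

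**Figure D2:**
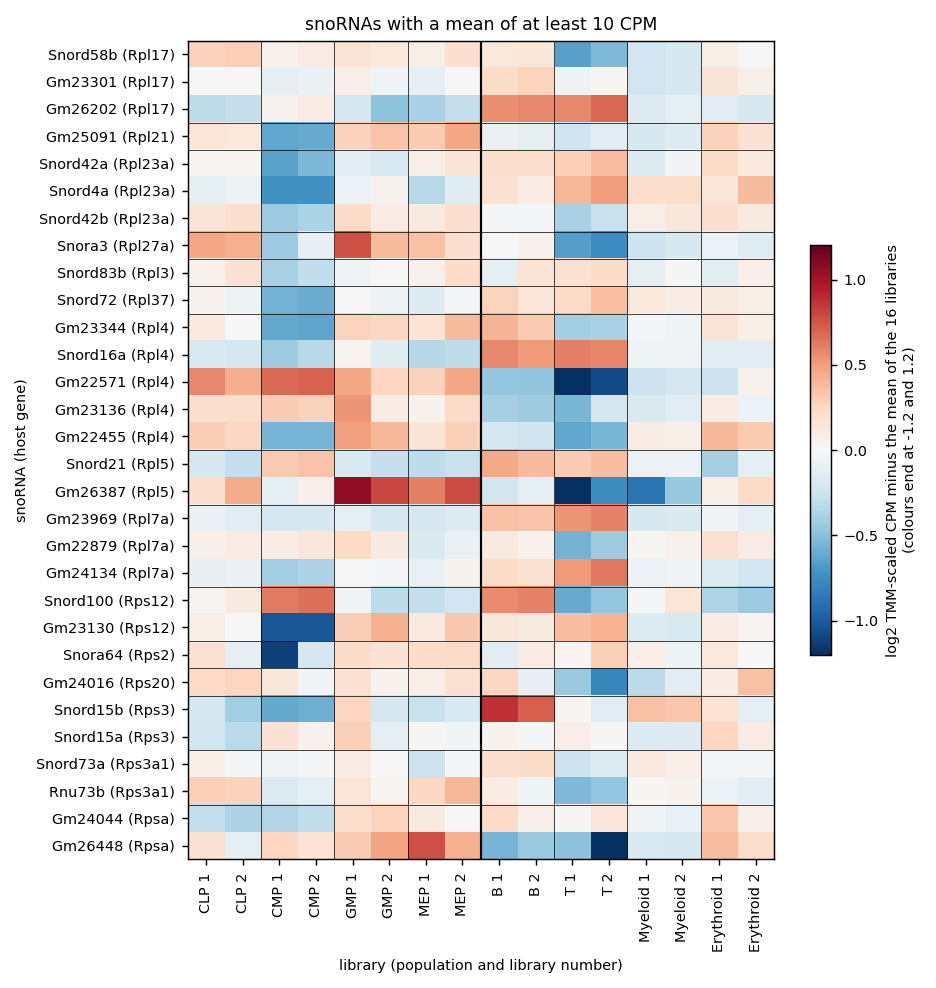
log2 CPM of 30 members with a mean of at least 10 CPM, relative to each member's mean over 16 libraries; rows are grouped by host gene, columns are libraries with progenitors left of the thick line, and colours end at -1.2 and 1.2. Neighbouring rows of 1 host often differ in sign, as for Gm23130 (5974 and 5979 CPM in CMP) and Snord100 (823 and 847).

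Progenitors and mature cells were compared as the mean of 4 populations against the mean of 4. Of the 49 members, 15 were higher and 15 lower in progenitors. Of all features, 26.7% were higher and 23.1% lower (49.8% in either direction), so the members' share is near the background. The median log2 difference was 0.04 over the members and 0.07 over all features. C/D-box members counted 9 higher and 11 lower of 29, and H/ACA-box members 4 higher and 3 lower of 16. The test takes the spread between the 2 libraries of a population as its error. With the libraries of each population summed, so that 4 populations faced 4, no member passed in edgeR. In that fit 7 members had an unadjusted p under 0.05, and 21 of 737 features passed.

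The split also depended on scaling. With library totals in place of TMM it was 30 higher and 8 lower, with RLE size factors 9 and 14, and with snoRNAs alone in the fit 14 and 19. Library totals moved the median of all features by 0.23 on the log2 scale. With all 3 scalings (TMM, RLE, totals) 9 members were called higher and 8 lower. The higher ones were Gm22571, Gm23136 and Gm22455 of Rpl4, Snord58b of Rpl17, Rnu73b of Rps3a1, Snora33 of Rps12, Gm26387 of Rpl5, Snora3 of Rpl27a and Gm26448 of Rpsa. Among the lower ones were Snord16a of Rpl4, Gm26202 of Rpl17, Gm23969 of Rpl7a, Snord42a and Snord4a of Rpl23a, Snord15b of Rps3 and Snord72 of Rpl37. Rpl4 and Rpl17 held a member of both kinds. Of those named, Snora33 lost its call without CLP library 1 (adjusted p = 0.0701), and Gm22455 lost it without CLP library 1 (0.134) or T library 2 (0.101).

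Gm22571, a C/D-box snoRNA of Rpl4, had the largest rise among members of at least 10 CPM whose libraries did not overlap between the sides. It ranged from 29.3 to 39.9 CPM in the 8 progenitor libraries (median 33.8) and from 10.7 to 25.4 in the 8 mature ones (median 19.2). The log2 difference was 0.96 ± 0.071 (SE; adjusted p = 7.54e-07), with T cells lowest at 10.7 and 11.6. Snord4a of Rpl23a ranged from 45.2 to 77.9 in progenitors and from 80.2 to 106 in mature cells, a log2 difference of -0.53 ± 0.054 (SE; adjusted p = 9.53e-06). Snord72 of Rpl37 ranged from 234 to 365 and from 373 to 457, a log2 difference of -0.35 ± 0.039 (SE; adjusted p = 1.68e-05). In both cases CMP was the lowest population, and the lowest mature library stood above the highest progenitor library in TMM-scaled CPM. The sides overlapped for both members with library totals, so this separation depends on scaling.

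The most abundant members were examined as well. Gm23301 of Rpl17, the highest, read 49161 to 56300 CPM in progenitors and 45584 to 64045 in mature cells and did not pass the test (adjusted p = 0.0542). It passed as lower without CLP library 1, GMP library 1, B library 1, T library 2 or erythroid library 2 (adjusted p 0.00618 to 0.0289), and as higher, by 0.17, with library totals. Gm26202 differed by -0.45 ± 0.038 and Gm23969 by -0.33 ± 0.022. Both overlapped between the sides, with B and T cells above all other libraries in TMM-scaled CPM. Gm23130 (-0.20 ± 0.031) and Snord21 of Rpl5 (-0.21 ± 0.038) passed as well, but their log2 differences were 0.03 and 0.02 with library totals. Gm22879 of Rpl7a differed by 0.12 ± 0.031 (adjusted p = 0.00645). It lost the call without any 1 of CLP library 1 or 2, MEP library 2, B library 1 or 2, T library 1 or 2 or myeloid library 1 (adjusted p 0.051 to 0.579).

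**Figure D3:**
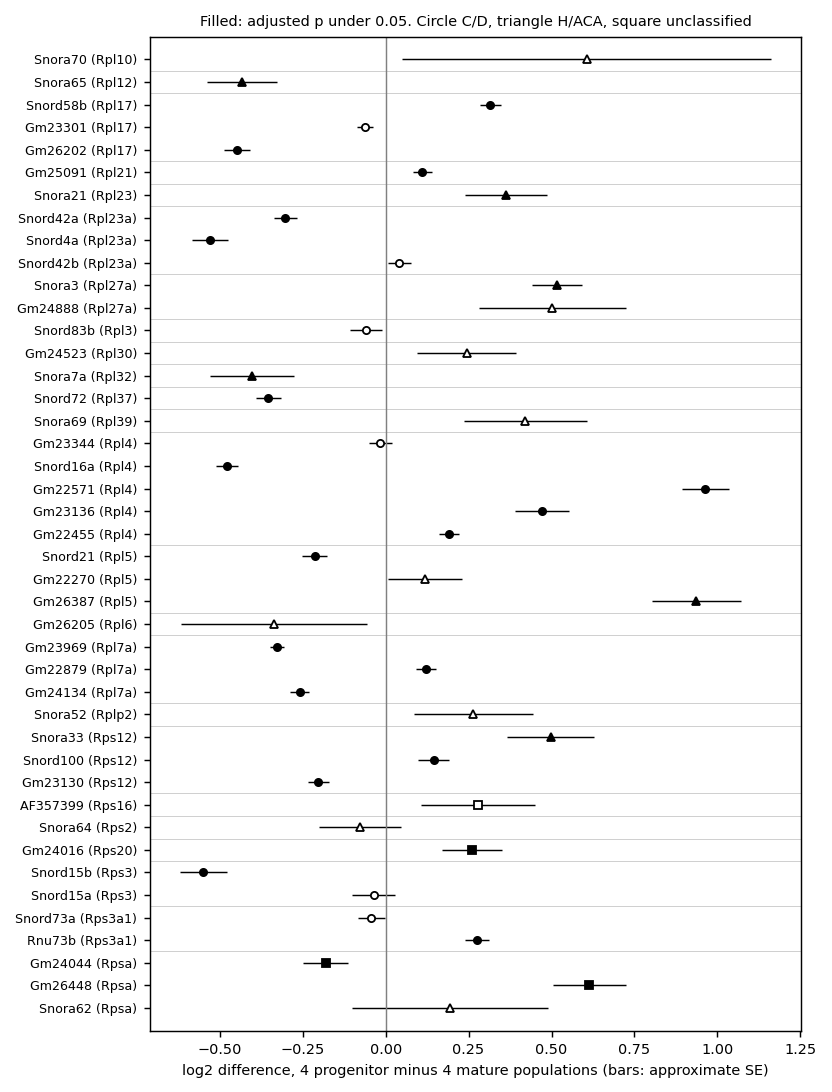
log2 difference between 4 progenitor and 4 mature populations for 43 tested members, grouped by host gene; bars are approximate SEs and filled symbols have an adjusted p under 0.05. Members of 1 host lie on both sides of 0, as Gm22571 (0.96) and Snord16a (-0.48) of Rpl4 do.

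Because snoRNAs of 1 host gene start from 1 transcript, the ratio of their counts within a library does not depend on library scaling and, as far as both come from that transcript, on its level. Of 37 pairs of tested members in 11 host genes, 32 had a ratio that differed between progenitors and mature cells (limma, adjusted p under 0.05). That compares with 70% of all 253 same-host pairs, and with 145 of 216 pairs in other hosts. The median size of the log2 difference was 0.46 in the members' pairs and 0.34 in the others. A called pair was found in 10 of the 11 host genes. The call was made for 14 of 16 pairs that share at least 10 identical bases and for 18 of 21 that do not. With the libraries of each population summed, 0 pairs passed in limma, and 13 of 37 had an unadjusted p under 0.05.

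The largest contrast of a pair was in Rpl4. The log2 ratio of Snord16a to Gm22571 lay between 3.42 and 4.12 in the 8 progenitor libraries. In mature cells it was 4.64 and 4.33 in erythroid, 4.72 and 4.69 in myeloid, 5.55 and 5.50 in B and 6.32 and 6.17 in T libraries, with no overlap. The difference was -1.44 ± 0.049 (SE; adjusted p = 5.2e-09). The ratio of Snord16a to Gm22455 differed by -0.67 ± 0.026, but here erythroid cells (-1.81 and -1.76) lay within the progenitor range and CMP (-1.17 and -1.08) above the other progenitors. Within the first Rpl4 family, whose members share 17 bases, Gm23344 to Gm22571 differed by -0.98 ± 0.054 and Gm23344 to Gm22455 by -0.21 ± 0.024. Within the second, Snord16a to Gm23136 differed by -0.95 ± 0.061, again with no overlap, at 3.63 to 4.13 in progenitors and 4.16 to 5.52 in mature cells. In Rpl5, Snord21 to Gm26387 differed by -1.17 ± 0.128 (SE; adjusted p = 1.87e-05) and Gm22270 to Gm26387 by -0.83 ± 0.194 (adjusted p = 0.00325). Gm22270 and Gm26387, each with 2 similar annotated copies, are similar copies of each other and share 40 identical bases. Reads of 1 may therefore be counted on the other, which limits the reading of their ratio.

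Rpl17 holds 3 related C/D-box members. Snord58b stood between 718 and 845 CPM in progenitors and at 443 and 480 in T cells, while Gm26202 was high in B and T cells. Their log2 ratio was -4.82 to -4.20 in progenitors, -5.25 and -5.25 in B and -6.04 and -6.03 in T cells. Erythroid cells (-4.60 and -4.62) lay within the progenitor range and myeloid cells (-4.88 and -4.89) just below it. The stage difference was 0.77 ± 0.033 (SE; adjusted p = 2.06e-08). They share 24 identical bases. Snord58b to Gm23301, with 22 bases in common, differed by 0.38 ± 0.018 (adjusted p = 3.99e-08). Its ratios were -6.18 to -5.99 in progenitors and -6.85 to -6.26 in mature cells, with no overlap. Snord58b has 1 similar annotated copy elsewhere, so its counts may include reads of that copy.

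In Rpl7a the ratio of Gm23969 to Gm22879 was 2.62 and 2.54 in T cells and 1.77 and 1.81 in B cells, against 1.17 to 1.49 in the other 12 libraries. Its stage difference was -0.45 ± 0.021 (SE; adjusted p = 3.75e-08). Gm22879 to Gm24134, the pair with the shared 18 bases at the 3′ end, differed by 0.38 ± 0.019 and was lowest in T cells, at 1.37 and 1.40 against 2.32 to 2.96 in all other libraries. Snord42a to Snord42b of Rpl23a, the other pair with a shared 3′ stretch, differed by -0.34 ± 0.020. Its ratio was 0.0862 and 0.0453 in T cells and below 0 in the other 14 libraries, from -0.952 to -0.369. Snord73a to Rnu73b of Rps3a1 differed by -0.32 ± 0.029, and MEP had the lowest ratios, at -0.923 and -0.835.

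**Figure D4:**
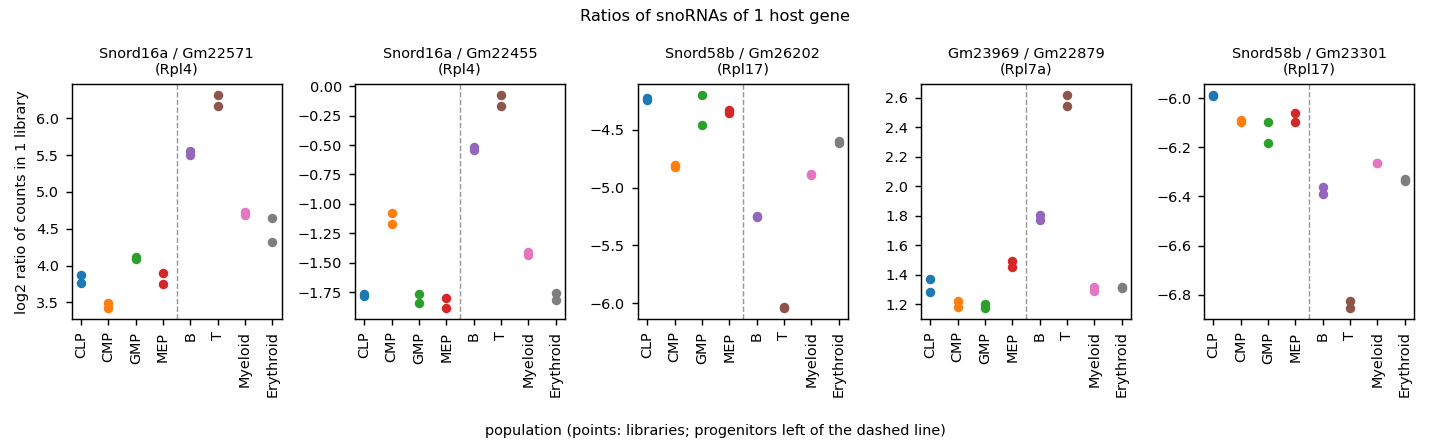
log2 ratio of counts of snoRNAs of 1 host gene in each of the 16 libraries, for the 5 pairs with the smallest p; each point is a library and progenitors lie left of the dashed line. T cells are at the extreme in all 5, for example at 6.32 and 6.17 for Snord16a over Gm22571 and at -6.04 and -6.03 for Snord58b over Gm26202.

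Each branch was then compared from its progenitor to its mature cells. These comparisons use the same libraries as the one above and are given side by side. In the lymphoid branch, 15 members were higher and 15 lower in CLP than in B and T cells, against 25.2% and 18% of all features (43.3% in either direction). By class, 20 of 29 C/D-box members differed beside 98 of 128 other C/D-box snoRNAs, and 7 of 16 H/ACA-box members beside 23 of 91 others. The largest differences among members of at least 10 CPM whose libraries did not overlap were Gm22571 (1.31 ± 0.117, SE), the H/ACA-box Gm26387 of Rpl5 (0.99 ± 0.222) and the H/ACA-box Snora3 of Rpl27a (0.79 ± 0.127) upward. Downward they included Gm26202 (-0.90 ± 0.069) and Snord16a (-0.77 ± 0.060). Snora3 read 48.4 and 47.1 CPM in CLP, 35.1 and 36.0 in B and 22.1 and 20.7 in T cells. Gm26387 and Snora3 have similar annotated copies, so their reads cannot be assigned with certainty. Without CLP library 1 the count of members called was 17. With library totals the split was 29 higher and 5 lower, where the median of all features moved by 0.45 on the log2 scale. No direction of these 5 changed.

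In the myeloid branch, 12 members were higher in GMP than in myeloid cells and 0 were lower by edgeR, against 16.3% and 15.5% of all features (31.8% in either direction). In all, 17 of the 49 had an unadjusted p under 0.05. Gm26387 read 20.2 and 16.9 CPM in GMP and 5.25 and 7.06 in myeloid cells, a log2 difference of 1.58 ± 0.266 (SE; adjusted p = 0.00129). Snora3 (0.80 ± 0.151) read 59.4 and 45.4 against 29.5 and 30.6, and lost its call in the fit on GMP and myeloid cells alone. Gm22571 (0.59 ± 0.140) read 33.8 and 29.3 against 20.6 and 21.2, and it lost its call without GMP library 1 or myeloid library 1 (adjusted p 0.0642 to 0.0958), in that fit and with no filter on low counts. The absence of lower calls held with RLE size factors (8 higher and 0 lower) but not in some other settings. The split was 10 higher and 6 lower with library totals, 10 and 8 with snoRNAs alone, and 11 and 4 without the first libraries of GMP, MEP and erythroid cells. Without myeloid library 1, 5 members were called.

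In the erythroid branch, 1 member was higher and 4 lower in MEP than in erythroid cells, against 5.47% and 4.41% of all features (9.88% in either direction). Rnu73b read 719 and 799 CPM in MEP and 577 and 553 in erythroid cells (log2 difference 0.43 ± 0.073). Snord4a (59.6 and 67.9 against 83.1 and 97.3) and Gm22879 (6264 and 6685 against 8024 and 7556) were lower, by log2 differences of -0.50 and -0.27. Snora7a, below 10 CPM, was lower too (-0.97 ± 0.263). Each of the named calls was lost without some library. Snora7a lost it without any library other than GMP 1, GMP 2 and MEP 1 (adjusted p 0.0571 to 0.267). Snord4a lost its call without MEP library 1 or erythroid library 2 (adjusted p 0.0728 to 0.0903). Rnu73b and Gm22879 lost theirs without any 1 of these libraries: CLP 1, CLP 2, CMP 1, MEP 2, B 2, T 1, myeloid 1 and erythroid 1. Rnu73b also lost it without T library 2 and Gm22879 without MEP library 1 (0.0549 to 0.305 over both). The number called was 2 without any 1 of CLP 1, CLP 2, CMP 1, MEP 2, B 2, T 1 and myeloid 1. It was 1 without erythroid library 1, 3 without T library 2 and 8 without GMP library 1 or 2. The fit on MEP and erythroid cells alone called 0 of 48 members, and 8 had an unadjusted p under 0.05. By scaling the split was 0 higher and 2 lower with RLE, 6 and 5 with library totals, and 2 and 11 with snoRNAs alone.

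For 18 of 49 members the progenitor-to-mature difference was unequal over the 3 branches, where 25.8% of all features passed that test. Of the 254 other tested snoRNAs, 108 passed it. By class, 16 of 29 C/D-box members passed, beside 88 of 128 other C/D-box snoRNAs. For the H/ACA-box class it was 1 of 16 members beside 13 of 91 others, so the members showed no excess over other snoRNAs. The smallest adjusted p belonged to Gm23969 (7.15e-05). It differed by -0.56 ± 0.039 (SE) in the lymphoid branch. Its GMP libraries (18743 and 17490) lay on both sides of the myeloid ones (17740 and 17951), and its MEP libraries (17623 and 18267) just below the erythroid ones (19848 and 18828). Gm22455 of Rpl4 followed (7.53e-05), higher in CLP at 1703 and 1651 CPM than in B (1200 and 1171) and T cells (899 and 949). It was also higher in GMP (1952 and 1823) than in myeloid cells (1472 and 1454), while MEP (1544 and 1686) lay below erythroid cells (1814 and 1725). Gm23130 of Rps12 was higher in GMP (14933 and 16343) than in myeloid cells (10896 and 10730), a log2 difference of 0.53 ± 0.063. In CLP it read 12775 and 12249, against 13156 to 16289 in B and T cells, and the sign of that difference turned with library totals. With library totals the tests of unequal branches were lost for Gm23969 (adjusted p = 0.421) and Gm23130 (0.104), and kept for Gm22455. Without any 1 of CLP library 1, CLP library 2 or erythroid library 1, the count was 11, and with RLE size factors it was also 11.

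**Figure D5:**
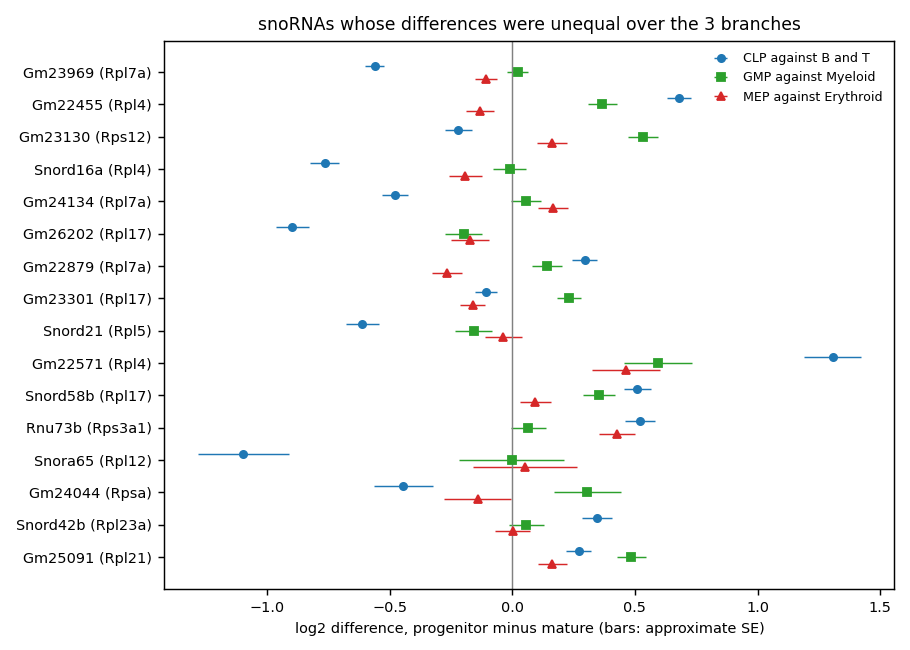
log2 differences from progenitor to mature cells in the lymphoid (circles), myeloid (squares) and erythroid (triangles) branch for 16 of the members whose differences were unequal; bars are approximate SEs. Gm23969 at the top stands at -0.56 in the lymphoid branch and close to 0 in the other branches.

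Among mature cells, B and T cells differed in 22 members, 18 higher and 4 lower in B cells, against 18.7% and 9.48% of all features (28.2% in either direction). By class, 18 of 29 C/D-box members differed beside 66 of 128 other C/D-box snoRNAs, and 3 of 16 H/ACA-box members beside 8 of 91 others. Snord100 of Rps12 read 793 and 805 CPM in B and 351 and 387 in T cells, a log2 difference of 1.11 ± 0.094 (SE; adjusted p = 1.09e-05). Snord15b of Rps3 read 1535 and 1375 against 850 and 762 (0.85 ± 0.143). Gm26387 read 8.30 and 8.91 against 2.91 and 5.75 (0.97 ± 0.278), and lost its call without B library 1 or 2 or T library 1 (adjusted p 0.051 to 0.0832). Lower in B cells were Gm24134 (-0.37 ± 0.060) and Gm23130 (-0.27 ± 0.062). Gm24134 lost its call without CMP library 1, B library 2, T library 1 or 2 or myeloid library 1 (adjusted p 0.058 to 0.239). Gm23130 lost it without any library other than CLP 1, CMP 2, MEP 1, B 1, myeloid 2 and erythroid 2 (0.0776 to 0.455). The number called was 11 without B library 1 and 13 without T library 2. With snoRNAs alone in the fit, 14 were higher and 11 lower.

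B and T cells together differed from myeloid and erythroid cells in 23 members, 12 higher and 11 lower, against 11.1% and 27.5% of all features (38.6% in either direction). The median log2 difference was 0.01 over the members and -0.32 over all features. Over the 254 other tested snoRNAs it was 0.002, with 59 higher and 53 lower, so the members' median is near that of other snoRNAs. Gm26202 (0.75 ± 0.054, SE), Snord16a (0.66 ± 0.047) and Gm23969 (0.58 ± 0.031) led the higher ones among members of at least 10 CPM whose libraries did not overlap. Among the lower ones were Gm22571 (-0.64 ± 0.10), Gm22455 (-0.62 ± 0.041) and Gm26448, an unclassified snoRNA of Rpsa (-0.70 ± 0.159). Gm26448 lost its call without B library 1 or T library 2 (adjusted p 0.0726 to 0.122). TMM factors were 0.765 to 0.844 in B and T libraries and 0.965 to 1.17 in the others. With library totals the split was 5 higher and 29 lower, with a median shift of -0.39 over all features. With RLE size factors it was 15 and 4, with a shift of 0.18. The 6 named here kept their direction under both. The number called was 14 without any 1 of B library 2, T library 1 or myeloid library 1.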

How the data were processed

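Small RNA of 8 sorted mouse bone marrow populations was sequenced, with 2 libraries each. The authors deposited 1 table per library of raw read counts per annotated interval. Trimmomatic 0.38, Bowtie2 2.3.4.1 and GRCm38 are named, per the submitters' processing notes; counting program, annotation and use of strand are not given in the sources used here. Of the deposited count values, 89.0% to 93.2% per library were even, as when both mates of a pair are counted. An interval missing from a table was taken as 0. Of 1885 intervals, 1860 matched GENCODE M21 by exact coordinates, 24 did not and 1 is named by a sequence accession.

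Groups came from sample titles. Counts were tested in edgeR 4.0.16 (R 4.3.3): TMM scaling, filterByExpr by population (minimum count 10), quasi-likelihood test over all 16 libraries with 8 residual degrees of freedom, and Benjamini-Hochberg adjustment over 749 features (threshold 0.05). The SE of a log2 difference is approximate, from the F statistic. Ratios within a host were log2 ratios of counts plus 0.5, fitted in limma 3.58.1 and adjusted over 253 pairs. Similar copies were found with blastn 2.17.0 (identity of at least 90% over at least 90% of length): 10 members have one and 1 overlaps another interval. Depth allowed tests of 49 members; precision is limited by 2 libraries per population. Both tests were also run on simulated counts with the same spread in all libraries and no shared deviations. That run cannot show how the tests behave with the unequal library spread of these data.

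Members, lists and comparisons were chosen with earlier results of these data known. Members named per comparison are the 3 largest called differences each way among members reaching 10 CPM on average whose libraries did not overlap between sides. For the tests over several groups they are those with the smallest p, and for progenitors against mature cells also the 8 most abundant. The members of 3 host genes (6 of the 49) are in the counts but are not reported here individually. Alternatives tried were RLE factors or library totals in place of TMM, other low-count filters, DESeq2 1.42.0, a replicate block, snoRNAs alone, similar copies left out, halved counts, populations as units, fits on fewer populations and each library left out. A block with the MEP numbers crossed, and a fit without the first libraries of GMP and erythroid cells and the second of MEP, were added after seeing the data. Replicate numbers were not taken as pairs: over 28 pairs of populations, 18 correlations of same-numbered deviations were over 0.1 and 7 under -0.1. All 7 involve MEP, the lowest at -0.909 with erythroid cells. The 21 pairs without MEP were above 0, from 0.0432 to 0.822, the highest being GMP with erythroid cells. Same-numbered libraries thus deviated together, with MEP the other way, for a reason that was not tested.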

Additional observations from a re-analysis of the deposited data

Results flagged for a closer look

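For 5 named members the difference from progenitor to mature cells was itself unequal over the lymphoid, myeloid and erythroid branches by edgeR's test of the difference. The adjusted p was 7.15e-05 for Gm23969 of Rpl7a and 7.53e-05 for Gm22455 of Rpl4. It was 0.000199 for Gm23130 of Rps12, 0.000199 for Snord16a of Rpl4 and 0.000231 for Gm24134 of Rpl7a. Gm24134 differed by -0.48 ± 0.053 (SE) on the log2 scale in the lymphoid branch, where CLP read 1205 and 1223 CPM and T cells 1845 and 2003. In the other branches GMP read 1300 and 1275 against 1231 and 1246 in myeloid cells, and MEP 1212 and 1328 against 1164 and 1102 in erythroid cells. Snord16a differed by -0.77 ± 0.060 in the lymphoid branch and read 574 and 509 in GMP against 543 and 548 in myeloid cells. Its MEP libraries (443 and 456) lay below the erythroid ones (516 and 511). With library totals the call was lost for Gm23969, Gm23130 and Snord16a, and with no filter on low counts for Snord16a and Gm24134.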

How the results depend on the processing

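The fits rest on 2 libraries per population, and counts of members called moved with the settings. With similar copies left out, 39 members were tested and 17 were called for progenitors against mature cells, 17 for CLP against B and T, 5 for GMP against myeloid, 1 for MEP against erythroid, 13 for B against T, 12 for B and T against myeloid and erythroid, and 9 for unequal branches. With no filter on low counts the counts were 4 for GMP against myeloid, 1 for MEP against erythroid, 14 for B against T, 13 for lymphoid against the other mature cells and 7 for unequal branches. With populations as units, 0 members and 0 pairs were called. On the populations compared alone, GMP against myeloid gave 6 and MEP against erythroid 0. MEP against erythroid also gave 2 with RLE, 11 with library totals, 8 with members of at least 10 CPM, 13 with snoRNAs alone, 9 with halved counts and 12 without the first libraries of GMP, MEP and erythroid cells. Unequal branches gave 11 with RLE. The cause of these moves was not tested, apart from fewer features or samples where the setting removes them.

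Leaving out 1 library at a time gave 32 to 40 members called over the 8 populations, 22 to 32 for progenitors against mature cells, 17 to 30 for CLP against B and T, 5 to 14 for GMP against myeloid, 1 to 8 for MEP against erythroid, 11 to 23 for B against T, 14 to 23 for lymphoid against other mature cells, 11 to 18 for unequal branches and 31 to 34 pairs.

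The log2 difference between progenitors and mature cells changed sign with library totals for Gm23301 (0.1687), Gm23130 (0.02795) and Snord21 (0.0164). Of all values for named members and pairs under the alternatives, 1315 kept direction and side of the threshold, 91 lost and 11 gained the call, and 3 changed sign. The cause was not tested. The labels do not tie replicate numbers to a shared mouse, day or batch. A replicate block on them gave 38, 29, 31, 11, 5, 24, 21, 19 and 32 calls in the order of the preceding paragraph. It changed no call of a named member or pair. Chosen after seeing the data, a replicate block with the MEP numbers crossed gave 39, 29, 31, 13, 5, 22, 23, 19 and 32 calls, and leaving out the first libraries of GMP and erythroid cells and the second of MEP gave 40, 29, 34, 15, 9, 26, 28, 26 and 33.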
